A study of Mus musculus with 4 samples.

Results

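The tumour cells of 2 libraries of mouse ascites were compared, 1 from mice given BTYNB and 1 from mice given BTYNB together with an antibody that blocks PD-1 (combination), to describe what adding PD-1 blockade to BTYNB went with inside the tumour cells. A cell was taken as a tumour cell if it had at least 200 detected genes, at most 33% mitochondrial UMIs, at least as many UMIs as the shallowest cell deposited for the combination, at least 5 UMIs of Krt7, Krt8, Krt18, Krt19 and Wt1 together and no UMI of the leukocyte gene Ptprc. A UMI is a unique molecular identifier, that is, 1 counted RNA molecule. This rule kept 7181 cells, 2812 of the BTYNB and 4369 of the combination library, of 26321 cells deposited for both and 46342 in the series. All mice were C57BL/6 females injected intraperitoneally with ID8-Trp53-/- cells, a mouse ovarian cancer line in which Trp53 was knocked out in every group, controls included. Injections of the drugs began 7 days later and were repeated until ascites reached roughly 3 mL. The paper reports longer median survival in the combination than in the control group. Time of collection and number of doses can therefore differ with treatment and cannot be told apart from it here. The BTYNB group was given this inhibitor of the RNA-binding protein Igf2bp1 with an IgG2a isotype antibody, and the combination group was given BTYNB with the PD-1 antibody (clone RMP1-14). The labels give 50 mg/kg for BTYNB and 100 ng per dose for either antibody, and the study's methods state other amounts. The other libraries came from mice given vehicle with the isotype antibody (control) or vehicle with the PD-1 antibody (anti-PD-1). Ascites cells of the animals of a treatment were pooled into 1 library, after erythrocyte lysis and removal of dead cells, so no spread between animals can be given, no test was possible, and every interval below covers counting error only.

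PD-1 is an inhibitory receptor of activated T cells, and its ligand PD-L1, encoded by Cd274, is displayed by tumour and myeloid cells. Interferon-gamma (IFNγ) released by T and NK cells acts through JAK kinases and factors such as Irf1 and raises a set of genes in the receiving cell that includes immunity-related and guanylate-binding GTPases, the immunoproteasome, the peptide transporter, MHC molecules and PD-L1 itself. The endoplasmic reticulum folds secreted and membrane proteins, MHC class I heavy chains among them, with chaperones such as BiP (Hspa5) and calreticulin, whose genes are raised together when unfolded protein accumulates.

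The tumour cells of both libraries held almost the same number of UMIs in total, 55707522 in BTYNB and 55814017 in combination, but the BTYNB cells were deeper, with a median of 18310.5 against 11503 UMIs and 4711.5 against 3624 detected genes per cell. Of the cells at the UMI floor, 50.9% of the BTYNB and 62.0% of the combination library met the rule, after 553 and 725 cells with tumour marker UMIs had been left out for a Ptprc UMI. The floor kept 5521 of 18283 BTYNB and 7042 of 7042 combination cells that had passed the gene and mitochondrial limits. These shares are therefore not the make-up of the ascites, for which the paper reports far fewer tumour cells after BTYNB alone than in the combination. The libraries shared 3 cell barcodes. The 5 tumour markers were present in both, with summed levels of 2416 and 2337 CPM, where CPM is a gene's UMIs per 1000000 UMIs of the tumour cells. Trp53 itself was counted at 34.4 and 30.7 CPM, and since the assay counts 3′ ends, this does not check the deletion. RNA of leukocytes was detectable in the tumour cells and differed in the same direction as the genes below: 10 of 10 tested pan-leukocyte markers and 12 of 12 tested macrophage markers were higher in the combination library, at summed levels of 106 against 155 CPM and 69.2 against 155 CPM. Scaled on the pan-leukocyte markers, the leukocyte profile came to 0.697% of the UMIs of the BTYNB and 1.16% of those of the combination tumour cells. It came from 10686 BTYNB and 1823 combination Ptprc-positive cells, without the UMI floor, below which only BTYNB cells fall. Their make-up differed, with macrophage markers at 7222 and 13943 CPM and B cell markers at 3393 and 877 CPM. Values of Ptprc-positive cells below therefore compare unlike sets of cells. In the tumour cells, T cell markers summed to 20.7 and 23.5 CPM, B cell markers to 62.6 and 63.1 CPM and NK cell markers to 1.74 and 2.22 CPM. Erythroid markers went the other way and summed to 72.7 and 26.5 CPM. Ratios below are therefore given also without the cells that held a UMI of Tyrobp, Laptm5, Coro1a, Lyz2, C1qa, Cd79a, Cd3e or Nkg7, or with cells of both libraries matched on their UMIs, where these values change the reading.

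Between the tumour cells of both libraries, most genes hardly differed. In the following, values of a pair are given for BTYNB first and the combination second. Log2 ratios of combination to BTYNB are on the scale of log2(CPM + 1), their counting intervals are those of the plain ratio of UMIs, and 12378 genes with at least 100 UMIs in either library were compared. The median ratio was -0.01, and the 5th and 95th percentiles were -0.24 and 0.29. A threshold of size was set at a log2 ratio of 0.32 in either direction, that is 25% higher or 20% lower. It was passed by 478 genes that were higher in the combination, 3.86% of all, and by 210 that were lower, 1.7% of all. At 1.5-fold the counts were 64 (0.517%) higher and 29 (0.234%) lower, and at 2-fold 13 (0.105%) higher and 6 (0.0485%) lower. Counts of gene groups are read against these shares of 3.86% and 1.7%. Among genes at 20 CPM or more in the higher library and at a higher level there in tumour than in Ptprc-positive cells, the highest ratios were those of Iigp1 and Igtp and the lowest those of Creld2, Hspa5 and Hyou1, which belong to an interferon-induced family and to the folding machinery of the endoplasmic reticulum.

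**Figure D1:**
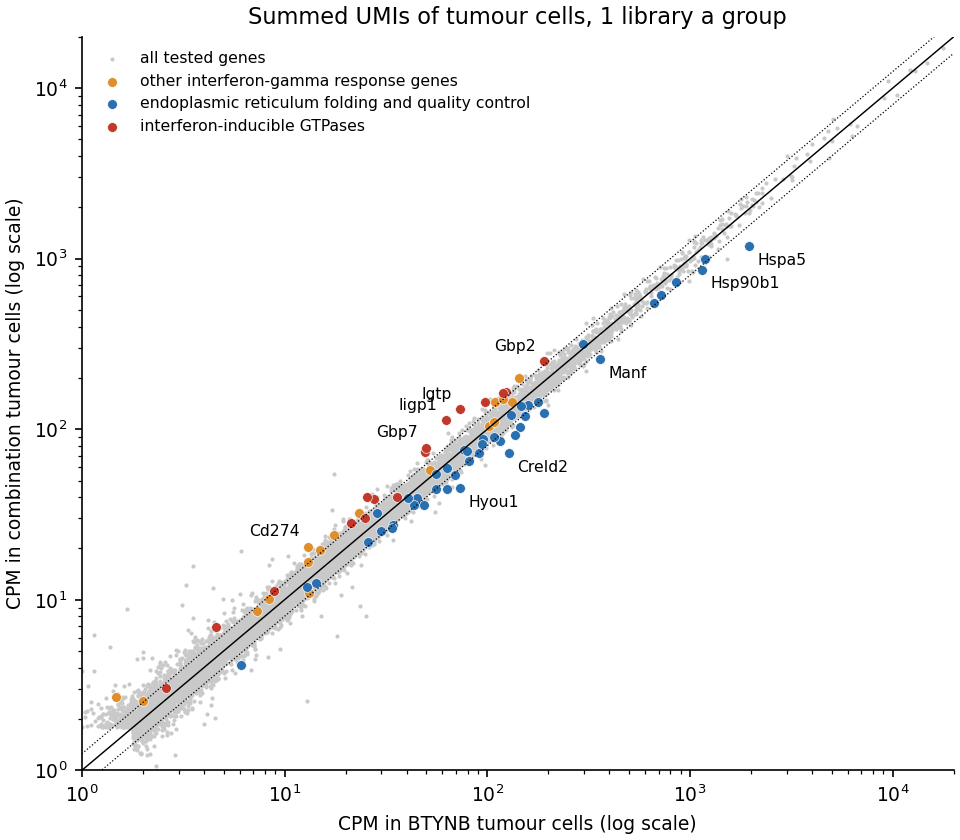
Level of each of the 12378 tested genes in the tumour cells of the BTYNB (x axis) and the combination library (y axis), in CPM on log axes; the solid line marks equal levels and the dotted lines the threshold of size. The interferon-inducible GTPases (red) lie above the line of equal levels and most genes of endoplasmic reticulum folding (blue) below it, with Hspa5 at 1951 and 1183 CPM.

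The interferon-inducible GTPases, which attack the membranes around intracellular pathogens and are a sensitive readout of IFNγ, were higher in the combination without exception. Of 16 tested members, 16 lay above 0 and 12 were higher past the threshold, with a median ratio of 0.46. Together they made up 919 and 1321 CPM (0.52, interval 0.51 to 0.54). Iigp1, an immunity-related GTPase, stood at 62.3 and 113 CPM (0.85, interval 0.80 to 0.92). Igtp (Irgm3), a regulatory member of the same family, stood at 73.5 and 132 CPM (0.83, interval 0.78 to 0.90). Among the other immunity-related GTPases, Irgm2 was at 97.5 and 145 CPM, Ifi47 at 120 and 164 CPM and Irgm1 at 124 and 166 CPM. The guanylate-binding proteins, which assemble on such membranes, moved in the same direction with smaller ratios for several members. Gbp7 stood at 49.7 and 78.1 CPM (0.64), Gbp6 at 25.6 and 39.9 CPM (0.62), Gbp3 at 49.5 and 73.7 CPM (0.56) and Gbp2, the most counted one, at 191 and 250 CPM (0.39). The lowest ratios were those of Gbp8 (0.15, interval 0.07 to 0.25) and Tgtp1 (0.17, interval -0.10 to 0.56), and the interval of Tgtp1 included 0. Both turned below 0 in cells matched on UMIs, at -0.07 and -0.14, and Tgtp1 stood at -0.29 without cells holding leukocyte UMIs. Gbp11 had too few UMIs to be tested. The median of the list was 0.47 without the cells holding leukocyte UMIs and 0.52 in cells matched on UMIs. In the Ptprc-positive cells of the libraries the list summed to 1071 and 1112 CPM. Igtp (45.7 and 41.6 CPM) and Iigp1 (36.8 and 88.9 CPM) were lower there than in the tumour cells, whereas Gbp7 (188 and 184 CPM) was higher there.

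Short promoter windows of the leading GTPase genes are shown because they carry both elements through which interferons act on these genes. They come from RefSeq promoters on GRCm38.p6, which run from 250 bases before to 50 bases after a gene's start, 5′ to 3′ on the gene's strand. The deposited counts were made on GRCm39, so these coordinates are not those of the counts. Capitals mark the letters GAAANNGAA, the core of the interferon-stimulated response element, or its reverse complement.
Igtp, chr11:58199514-58199538: taggaactGAAACTGAAagctgttc
Irgm2, chr11:58214905-58214929: caggaactGAAACTGAAagctgttc
Gbp7, chr3:142530276-142530300: tgtgcagtTTCAGTTTCagttctcc
Cd274, chr19:29367354-29367378: tgggtggcTTCGGTTTCacagacag
In the next windows capitals mark the letters TTCNNNGAA, the gamma-activated sequence.
Igtp, chr11:58199503-58199527: ctagccatTTCTAGGAActgaaact
Irgm2, chr11:58214894-58214918: ctagccatTTCCAGGAActgaaact
Gbp7, chr3:142530241-142530265: gcagaagcTTCTCAGAAagtcagca
Irf1, chr11:53769916-53769940: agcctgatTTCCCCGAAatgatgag
In Igtp and Irgm2 the gamma-activated sequence lies just before the response element core, and the windows of these neighbouring genes differ at few bases. On either strand, 9 of the 10 GTPase genes with a promoter entry held GAAANNGAA and 6 held TTCNNNGAA, against 9.76% and 9.55% of all 27025 genes with an entry. Among all tested genes with an entry, 71 of the 840 holding GAAANNGAA (8.45%) were higher past the threshold, with a median ratio of 0.02, and 38 of the 779 holding TTCNNNGAA (4.88%), with a median of -0.01. Tap1 held neither motif and Cd274 no TTCNNNGAA in this window. Iigp1, Gbp4, Gbp6, Gbp8, Gbp9 and Gbp10 had no entry, which leaves under 80% of the list matched, so the share is void as a check of the list and is given as a description of the matched genes.

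Other genes that IFNγ raises were also mostly higher in the combination. Of 18 tested genes of this list, 9 were higher past the threshold and 0 lower, with a median ratio of 0.33. Cd274, which encodes PD-L1, stood at 13.1 and 20.5 CPM (0.61, interval 0.51 to 0.78), and at 0.43 without cells holding leukocyte UMIs. Tap1, the peptide transporter subunit, stood at 143 and 201 CPM (0.49, interval 0.45 to 0.53). The class I transactivator Nlrc5 stood at 23.4 and 32.4 CPM (0.46) and the class II transactivator Ciita at 17.5 and 24.01 CPM (0.44, and 0.18 in cells matched on UMIs). These are a transporter subunit and transactivators of the MHC genes, and all of them lay above the BTYNB level. The chemokine Cxcl10 stood at 49.5 and 73.6 CPM (0.56), but at 0.09 without the cells holding leukocyte UMIs and at 0.87 in cells matched on UMIs. Irf1, a primary IFNγ target, differed little, at 133 and 145 CPM (0.13), and so did the adhesion molecule Icam1, at 102 and 105 CPM (0.04). Wars, a tRNA synthetase raised by IFNγ, was at 13.2 and 11.0 CPM (-0.24).

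**Figure D2:**
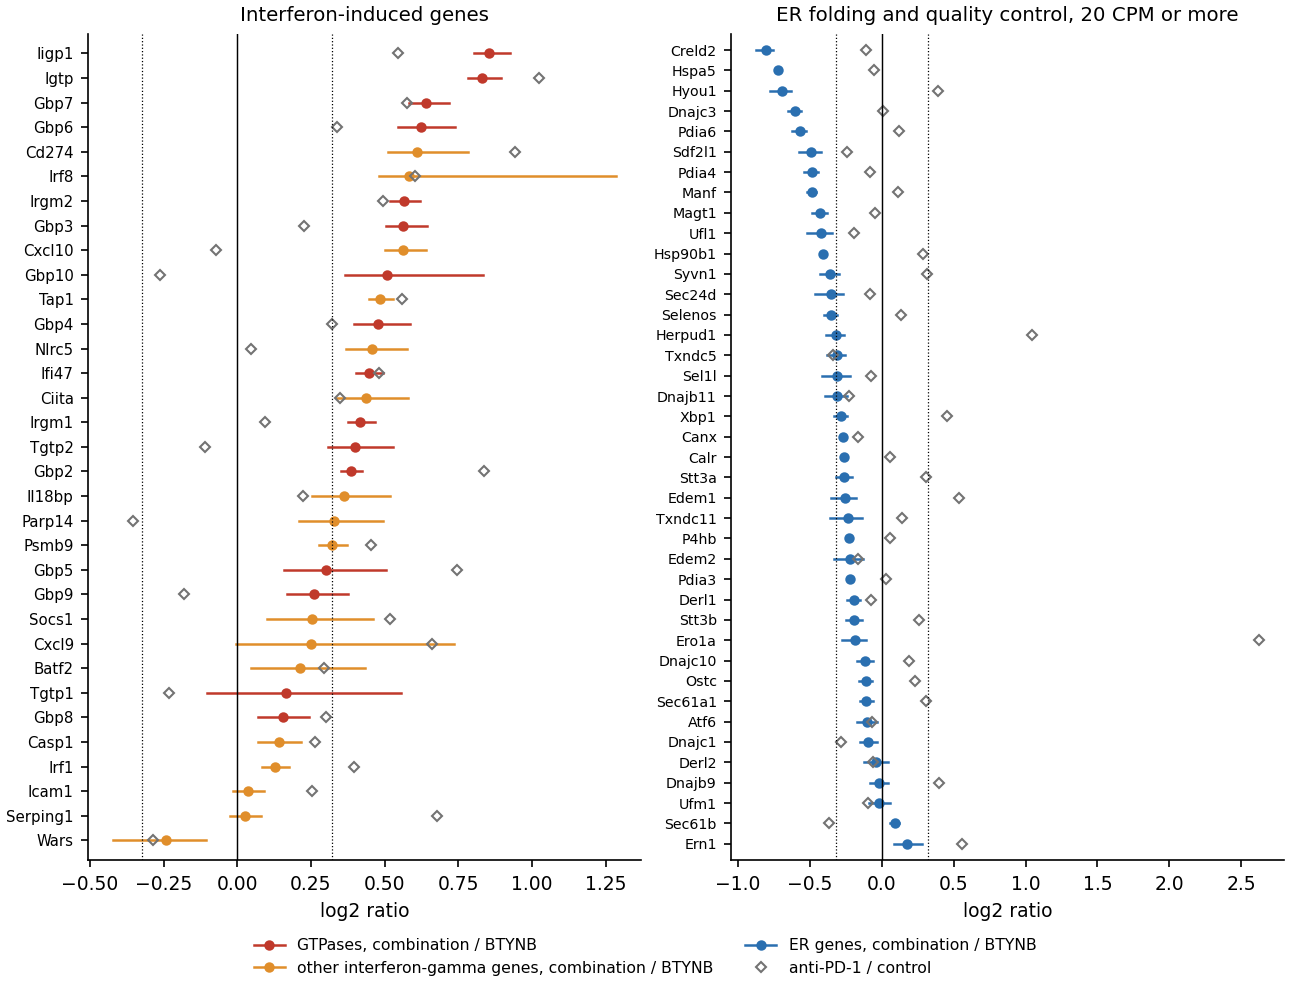
Log2 ratio of each gene (filled circles, combination to BTYNB) with its counting interval (bar), and of the same gene between anti-PD-1 and control (open diamonds), for the interferon-inducible GTPases and other IFNγ genes (left) and for endoplasmic reticulum genes at 20 CPM or more (right); dotted lines mark the threshold of size. In the left panel, which leaves out 1 gene of the lists, every circle but that of Wars lies above 0, and in the right panel the circles of Creld2, Hspa5 and Hyou1 lie lowest, at -0.81, -0.72 and -0.70.

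Genes that respond mainly to type I interferons, many of them antiviral, were mostly higher as well, some of them at low levels. Of 35 tested members, 33 lay above 0, 13 were higher past the threshold and 0 lower, with a median ratio of 0.30. Zbp1, a sensor of Z-form nucleic acids, stood at 64.3 and 95.4 CPM (0.56, interval 0.51 to 0.63). Ifit3, which binds viral RNA, stood at 2.21 and 4.53 CPM (0.79), Rtp4 at 28.5 and 39.8 CPM (0.47), the ubiquitin-like modifier Isg15 at 13.6 and 18.8 CPM (0.44) and its protease Usp18 at 15.7 and 21.5 CPM (0.43). Xaf1 was at 78.8 and 105 CPM (0.40). The ratios of the members ran from -0.18 to 0.79, and some of the best counted members lay towards the lower end. Oasl2 stood at 205 and 205 CPM (0.00), Isg20 at 136 and 144 CPM (0.09) and Oasl1 at 20.3 and 17.9 CPM (-0.18, interval -0.31 to -0.06).

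The receptors and kinases upstream of these genes did not share the direction. Of 24 tested genes of interferon reception and signalling, 4 were higher past the threshold (among them Irf8, Stat2 and Irf7) and 0 lower, with a median ratio of -0.05 and 9 above 0. The receptor chains Ifngr1 and Ifngr2 stood at 22.96 and 21.2 CPM (-0.11) and at 52.3 and 46.3 CPM (-0.17). The kinases Jak1 and Jak2 were at -0.15 and -0.24, and Stat3, which transmits cytokines of the interleukin-6 family, at 300.2 and 262 CPM (-0.20). Irf8 is a leukocyte gene, at 318 and 483 CPM in Ptprc-positive cells against 1.47 and 2.71 CPM in tumour cells. Subtraction of the leukocyte profile left no Irf8 level in either library, so no ratio could be read there. Stat2 was at 0.41, and at 0.05 in cells matched on UMIs.

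Of the MHC class I molecules, which present peptides of the cell's own proteins to CD8 T cells, the classical heavy chains differed little. H2-K1 stood at 2884 and 2934 CPM (0.02, interval 0.01 to 0.03) and H2-D1 at 2076 and 2211 CPM (0.09). Their shared light chain B2m stood at 3978 and 4719 CPM (0.25, interval 0.24 to 0.25), and the non-classical H2-M3 at 34.9 and 44.2 CPM (0.33). Of 12 tested members, 1 was higher past the threshold and 0 lower, with a median of 0.14. This median was 0.07 in cells matched on UMIs, -0.06 in cells of 20000 UMIs and over and -0.01 in cycling cells. The genes that cut and load peptides went in both directions. The immunoproteasome subunits Psmb9 and Psmb8 stood at 120 and 150 CPM (0.32) and at 244 and 298 CPM (0.29), the activator Psme2 at 94.1 and 114 CPM (0.27) and Tap1 at 0.49, whereas its partner Tap2 was at 44.6 and 45.6 CPM (0.03). Tapbpl, a peptide editor, stood at 27.0 and 33.8 CPM (0.31). Chaperones of the loading complex lay below the BTYNB level, with Calr at 1186 and 990 CPM (-0.26), Canx at 661 and 547 CPM (-0.27) and Pdia3 at 856 and 734 CPM (-0.22), and Tapbp was at -0.09. The list as a whole had a median of 0.17 but a summed level that was lower in the combination, 4336 against 4092 CPM (-0.08). Of its 14 tested genes, 2 were higher past the threshold and 0 lower.

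The ratio of H2-K1 and H2-D1 UMIs to Cd274 UMIs, a measure of MHC-I against PD-L1 transcripts, was 379 (interval 353 to 408) in BTYNB and 251 (237 to 267) in combination tumour cells. The log2 ratio of these values was -0.59 (interval -0.69 to -0.50). It rested on Cd274, which had 729 and 1143 UMIs, while H2-K1 and H2-D1 together had 276326 and 287146. Without cells holding leukocyte UMIs it was -0.39, and Cd274 stood at 148 and 128 CPM in the Ptprc-positive cells. In control and anti-PD-1 tumour cells the same measure was 486 and 290.

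MHC class II genes, usually held by professional antigen-presenting cells and inducible by IFNγ in others, were detected in these tumour cells and were higher in the combination. Of 11 tested members, 7 were higher past the threshold and 0 lower, with a median of 0.37. H2-Ab1 stood at 586 and 762 CPM (0.38), H2-Eb1 at 710 and 889 CPM (0.33) and H2-Aa at 1043 and 1244 CPM (0.26), while the invariant chain Cd74 stood at 881 and 842 CPM (-0.07, interval -0.08 to -0.05). The classical chains thus moved apart from the chain that escorts them. Depth and leukocyte RNA both touch this list. H2-Ab1 reached 5853 and 8533 CPM in the Ptprc-positive cells of these libraries, and the list's median was 0.41 without the cells holding leukocyte UMIs, 0.29 after subtraction of the leukocyte profile and 0.16 in cells matched on UMIs. Within cells under 10000 UMIs it was 0.56, and within cells of 20000 UMIs and over 0.04. The part of either in the result was not tested. The protease Ctss, at 17.1 and 33.4 CPM (0.93), had 2871 and 3416 CPM in Ptprc-positive cells. Subtraction of the leukocyte profile left no Ctss level in either library, so its ratio of 0.00 there compares nothing. Ctss stood at 1.05 without the cells holding leukocyte UMIs and at 0.155 in cells matched on UMIs.

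Among the ligands of checkpoint receptors, Cd274 was the one with a clear difference. Of 12 tested members, 3 (Cd274, Tnfsf9 and Cd86) were higher past the threshold and 0 lower, with a median of 0.04. Tnfsf9, the ligand of the costimulatory receptor 4-1BB, stood at 4.63 and 6.29 CPM (0.37). Cd86 was at 1.74 and 2.53 CPM (0.36), and its ratio was below 0 after subtraction of the leukocyte profile (-0.04) and in cells matched on UMIs (-0.22). Cd47, which restrains phagocytosis, stood at 291 and 280 CPM (-0.05), and Cd24a, with a similar role, at 21.2 and 25.01 CPM (0.23, and 0.06 after subtraction). The ligands of the receptor TIGIT, Pvr and Nectin2, were at -0.09 and -0.11.

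The chemokine and cytokine list held 3 genes higher and 3 lower past the threshold among 27, with a median of 0.00. Besides Cxcl10, the higher ones were Ccl5, which attracts T cells, at 8.69 and 12.9 CPM (0.52, and -0.14 without cells holding leukocyte UMIs), and Il15, at 4.34 and 6.22 CPM (0.43). The lower ones, Cxcl13, Il1b and Cxcl5, had at most 3.21 CPM in either library and each turned above 0 under an alternative. Cxcl1, a neutrophil chemokine, stood at 130 and 112 CPM (-0.21), Vegfa at 159 and 136 CPM (-0.22) and the alarmin Il33 at 81.8 and 69.4 CPM (-0.23). The epithelial chemokine Cxcl17 stood at 273 and 292 CPM (0.10).

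The clearest group with lower levels in the combination was the folding machinery of the endoplasmic reticulum. In the list of the unfolded protein and integrated stress response, 9 of 21 tested genes were lower past the threshold, against 1.7% of all genes, and 0 higher, with a median of -0.29. Hspa5, the chaperone BiP, stood at 1951 and 1183 CPM (-0.72, interval -0.74 to -0.71). Creld2, a secreted product of the same response, stood at 127 and 72.4 CPM (-0.81, interval -0.87 to -0.76). The cochaperone Dnajc3 was at 191 and 125.2 CPM (-0.61), the protein disulfide isomerases Pdia6 and Pdia4 at 138 and 92.3 CPM (-0.57) and at 145 and 103 CPM (-0.49), and the secreted factor Manf at 360 and 257 CPM (-0.49). These genes belong to the arm of the response that raises chaperones. Hsp90b1, the chaperone GRP94, stood at 1145 and 864 CPM (-0.41), Xbp1, a transcription factor of this arm, at 177 and 145 CPM (-0.29) and Herpud1, of the degradation machinery, at 91.1 and 72.7 CPM (-0.32). Other members of the list belong to the integrated stress response around Atf4. Atf4 stood at 330 and 335 CPM (0.02), Asns at 39.5 and 46.0 CPM (0.21), Psat1 at 138 and 142 CPM (0.05), Phgdh at 68.2 and 70.5 CPM (0.05) and Ddit3 at 26.9 and 23.8 CPM (-0.17), and Trib3, which was lower past the threshold, at 9.24 and 6.72 CPM (-0.41).

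A wider list of 43 tested genes of endoplasmic reticulum folding and quality control was put together after these values had been seen and is given as a description. In it 15 genes were lower past the threshold and 0 higher, 41 lay below 0, and the median was -0.26. It adds Hyou1, a nucleotide exchange factor of BiP, at 73.3 and 44.9 CPM (-0.70), Sdf2l1 at 63.4 and 44.8 CPM (-0.49), the magnesium transporter and oligosaccharyltransferase subunit Magt1 at 115 and 85.2 CPM (-0.43), the ubiquitin ligase Syvn1 at 69.2 and 53.8 CPM (-0.36) and Selenos at 153 and 120 CPM (-0.35). The genes above 0 were Ern1, the sensor IRE1, at 28.5 and 32.3 CPM (0.18), and the translocon subunit Sec61b (0.09). The chaperone gene Dnajb9 was at 77.0 and 75.9 CPM (-0.02). In cells holding no leukocyte UMI, Hspa5, Creld2 and Hyou1 stayed at least 1.5-fold lower. Of 15 heat shock protein genes, 12 lay below 0 and 1, the stress-inducible Hspa1b at 19.1 and 10.7 CPM (-0.78), was lower past the threshold, with a median of -0.13 (-0.05 in cells matched on UMIs). Hsph1, Hspb8 and Hspa8 were at -0.31, -0.29 and -0.27 and Hsp90ab1 at -0.03.

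Promoter windows of 5 lower genes are shown because they carry the endoplasmic reticulum stress element, through which Atf6 and Xbp1 raise chaperone genes. Capitals mark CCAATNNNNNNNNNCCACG or its reverse complement, searched on both strands after the ratios were known.
Hspa5, chr2:34772022-34772046: tcaCCAATCGGAGGCCTCCACGacg
Creld2, chr15:88819517-88819541: tctCGTGGCGAGCCTCAATTGGtcc
Pdia6, chr12:17266488-17266512: agaCCAATGAAAGGCGGCCACGgcg
Dnajc3, chr14:118937824-118937848: caaCCAATCAGCGCCAACCACGacc
Hsp90b1, chr10:86705530-86705554: gtgCGTGGTGAGGCACGATTGGtga
These are again RefSeq promoters on GRCm38.p6, and the element begins at positions -126 to -65 from the start of these genes. Of all 32851 promoters, 39 (0.119%) held the element. Pdia4 and Sdf2l1, both at -0.49, did not hold it in this window. Of the tested genes with a promoter entry, 17 held it, among them 9 of the 37 folding genes with an entry. The ratio lay below 0 in 15 of these 17, 8 were lower past the threshold and 0 higher, and the median was -0.27. Outside the folding list, Alg12, which builds N-glycans, was at 23.8 and 18.7 CPM (-0.33), and the remaining genes lay between -0.26 and 0.07. All genes past the threshold but Alg12 are members of the folding list, so this count largely repeats that list.

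Within single cells both shifts were moves of the whole distribution. Each cell was thinned to 5000 UMIs, because the BTYNB cells were deeper, and no cell was lost. The mean number of GTPase UMIs of the 5000 was 4.72 in BTYNB and 6.70 in combination, with medians of 3 and 5. Cells with at least 5 such UMIs made up 37.2% and 57.2%, and cells with 0 made up 7.97% and 3.02%. Igtp alone was detected in 25.3% (interval 23.7 to 26.9) and 40.9% (39.5 to 42.4) of the thinned cells, and in 53.1% and 63.2% before thinning. For scale, the macrophage gene Lyz2, which tumour cells should lack, was detected in 4.16% and 9.27% of the thinned cells. For the folding list the mean was 49.4 UMIs in BTYNB and 38.3 in combination, with medians of 46 and 36. Its 75th percentile in the combination, 45, lay below the BTYNB median. MHC class II genes summed to 17.8 and 21.5 UMIs per cell, and cells with 0 of them made up 1.6% and 0.275%.

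**Figure D3:**
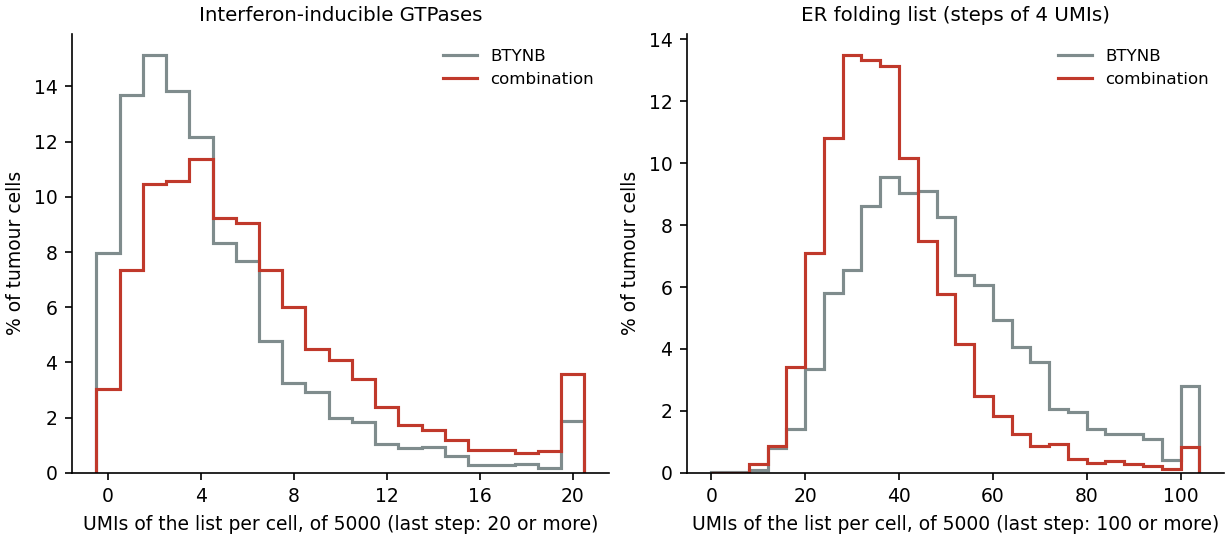
Share of tumour cells (y axis, %) by the number of UMIs of a list per cell after thinning to 5000 UMIs (x axis), for the interferon-inducible GTPases (left) and the endoplasmic reticulum folding list (right), with BTYNB in grey and combination in red. The whole curve is shifted to higher values for the GTPases (median 3 and 5) and to lower values for the folding list (median 46 and 36).

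The same held in groups of cells formed without the listed genes. Tumour cells of both libraries fell into 5 clusters on 1000 variable genes from which the listed genes had been left out, and every cluster held at least 377 BTYNB and 565 combination cells. Clusters 1 and 2 were led by Kctd14, Fxyd3 and Kcnd2, Muc16, cluster 3 by Krtdap and replication genes such as Pclaf, cluster 4 by Col1a2, Saa3 and Col1a1, and cluster 5 by mitosis genes such as Cenpf and Prc1. Cluster 3 made up 13.4% of the BTYNB and 24.7% of the combination cells, and each other cluster a smaller share of the combination than of BTYNB. The GTPase median lay between 0.45 and 0.65 in all 5 clusters, and every member tested there was above 0 in each. The folding median lay between -0.32 and -0.17. By depth, the GTPase median was 0.36, 0.53 and 0.42 in cells of under 10000, 10000 to 20000 and at least 20000 UMIs, and the folding median was -0.24, -0.31 and -0.23. The type I interferon list lay between 0.22 and 0.39 in all of these groups.

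**Figure D4:**
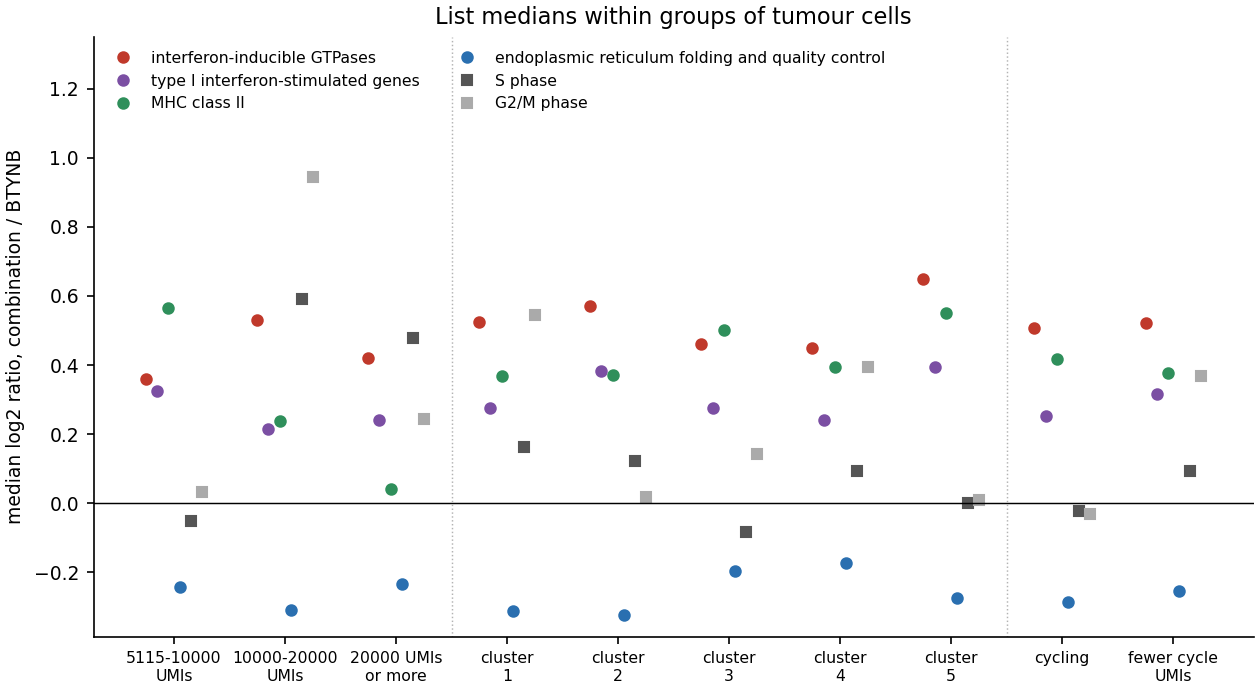
Median log2 ratio of combination to BTYNB (y axis) of 6 gene lists, 1 point each, within groups of tumour cells by UMIs, by cluster and by cell cycle UMIs (x axis). The GTPases stay between 0.36 and 0.65 and the folding genes between -0.32 and -0.17, whereas the S phase and G2/M medians range from -0.08 to 0.94. The groups by cell cycle UMIs were formed on the S phase and G2/M genes themselves.

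Cell cycle genes differed, but by an amount that depended on depth. Of 47 S phase genes, 7 were higher past the threshold and 0 lower (median 0.15), among them Tyms, which makes thymidylate, at 36.2 and 47.6 CPM (0.39). Of 53 G2/M genes, 10 were higher and 0 lower (median 0.21), among them the ubiquitin-conjugating enzyme Ube2c at 197 and 279 CPM (0.50), Cdk1 at 85.8 and 117 CPM (0.44) and Birc5 at 114 and 153 CPM (0.43). In cells matched on UMIs the medians were 0.61 and 0.66. In cells under 10000 UMIs they were -0.05 and 0.03, in cells of 10000 to 20000 UMIs 0.59 and 0.94, and in cells of 20000 UMIs and over 0.48 and 0.24. Cells with at least 30 UMIs of these genes of 5000 made up 31.4% (interval 29.7 to 33.2) of BTYNB and 39.0% (37.5 to 40.4) of combination cells, beside 47.1% of control and 50.4% of anti-PD-1 cells. Within those cycling cells the S phase and G2/M medians were -0.02 and -0.03. The cells were chosen on these same genes, so these medians are largely set by the choice. The part of depth in these differences was not tested.

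Genes of metabolism and stress differed by less. Of 21 glycolysis genes, 0 were higher and 2 lower past the threshold (median -0.10), with Eno1 at 150 and 116 CPM (-0.37), Pfkl at 43.0 and 32.9 CPM (-0.38), Aldoa at 1033 and 838 CPM (-0.30) and Gapdh at 1252 and 1260 CPM (0.01). Of 17 hypoxia genes 2, Pdk1 and Rora, were lower (median -0.14). Nuclear genes of the respiratory chain had 2 of 76 higher, Uqcr11 at 214 and 291 CPM (0.44) and Atp5k at 327 and 410 CPM (0.32), and 0 lower, with a median of 0.13, and genes of the mitochondrial genome had a median of -0.10 (-0.29 in cells matched on UMIs). Cytosolic ribosomal protein genes had a median of 0.09, with 1 of 80, Rpl37, past the threshold. Of 20 sterol genes 2 were higher, among them Sqle, an enzyme of sterol synthesis, at 9.64 and 12.5 CPM (0.34). Scd2, a fatty acid desaturase outside these lists, was at 200 and 140 CPM (-0.51). The list of Igf2bp1 and its oncofetal partners had 0 of 15 past the threshold in either direction, with Igf2bp1, the protein BTYNB is directed against, at 9.16 and 11.5 CPM (0.30, interval 0.16 to 0.50) and Myc at 155 and 179 CPM (0.20). Lists of p53 targets (0 higher and 1 lower of 18), oxidative stress genes (0 and 1 of 24) and genes of cell death (2 and 1 of 24) held few genes past the threshold, the higher ones of the last being Zbp1 and Birc5.

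Inflammatory and immediate early genes leaned to lower values. Of 25 NF-kB response genes, 1 was higher and 2 lower past the threshold (median -0.10), with the inhibitor Nfkbia at 266 and 234 CPM (-0.19) and the RNase Zc3h12a at 19.5 and 15.3 CPM (-0.33). Of 27 AP-1 and immediate early genes, 0 were higher and 1, Egr2, lower (median -0.05, and -0.34 in cells matched on UMIs), with Egr1 at 1238 and 1027 CPM (-0.27) and Fos at 2505 and 2261 CPM (-0.15). Complement genes held 4 lower and 1 higher of 15, with a median of -0.14 that was -0.31 in cells matched on UMIs and 0.03 in cells under 10000 UMIs. Cd55, which protects cells from complement, stood at 67.4 and 45.8 CPM (-0.55), C3 at 224 and 169 CPM (-0.41), C1s1 at 440 and 336 CPM (-0.39) and Clu at 1140 and 875 CPM (-0.38). The higher one, Cfp, is a leukocyte product, at 1.87 and 4.51 CPM and at -0.34 after subtraction. Clock output and glucocorticoid-induced genes, a list added after values had been seen, held 6 lower and 0 higher of 25, led by Per1 at 55.2 and 32.9 CPM (-0.73), with Klf9 at 196 and 148 CPM (-0.40). Its median of -0.18 was -0.02 in cells with few cell cycle UMIs. Epithelial and mesothelial identity genes (1 higher and 2 lower of 23) leaned lower, with 18 below 0 and a median of -0.13. This median was -0.28 in cells matched on UMIs and -0.07 in cells with few cell cycle UMIs. Among them, Wt1 stood at 909 and 884 CPM (-0.04), Krt19 at 720 and 757 CPM (0.07), Krt18 at 454 and 376 CPM (-0.27) and the acute phase gene Lcn2 at 15.1 and 8.01 CPM (-0.84). Genes of the extracellular matrix (1 and 2 of 33) were mostly alike, with a median of -0.01. Of 21 adhesion and surface genes, Ly6a at 27.0 and 41.5 CPM (0.60, and 0.26 without cells holding leukocyte UMIs) and Cd14 were higher, and the proteoglycan Sdc4 at 984 and 744 CPM (-0.40) and Alcam at 56.3 and 44.6 CPM (-0.33) were lower.

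Outside the lists, the highest ratios among genes at 20 CPM or more in the higher library were those of Wwox at 28.7 and 44.6 CPM (0.62), Myl7 at 17.7 and 27.6 CPM (0.61), Nrgn at 103 and 150 CPM (0.54), Rasl11a at 17.6 and 26.0 CPM (0.54), Krtdap at 103 and 146 CPM (0.50) and Syce2 at 20.8 and 29.7 CPM (0.49). Myl7 and Krtdap are among the leading genes of cluster 3, which held a larger share of the combination than of the BTYNB cells. Myl7 stood at -0.01 in cells with few cell cycle UMIs. Low ratios outside the lists included, besides Scd2, the unnamed or predicted transcripts ENSMUSG00000121069 at 1518 and 994 CPM (-0.61), ENSMUSG00000121137 at 306 and 218 CPM (-0.48), Gm12840 (-0.65), Gm55330 (-0.64), Gm15564 and Gm48228. Among genes at a higher level in Ptprc-positive than in tumour cells stood Lyz2 at 17.5 and 54.3 CPM (1.58). After subtraction of the leukocyte profile Lyz2 was at -0.51, a value set by the pseudocount because little or no level was left. In the other direction stood the globins and haptoglobin, namely Hbb-bs at 25.1 and 8.06 CPM (-1.53), Hba-a1 at 23.6 and 9.24 CPM (-1.27) and Hp at 21.4 and 11.9 CPM (-0.80).

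The same antibody without BTYNB can be read from the control and anti-PD-1 libraries, which share no sample with the pair above, and whose tumour cells numbered 6829 and 8782. That pair differed in far more genes, with 12.6% of 12923 tested genes higher and 18.3% lower past the threshold in anti-PD-1. Leukocyte RNA differed as well. Pan-leukocyte markers summed to 78.9 and 254 CPM and macrophage markers to 57.7 and 123 CPM in control and anti-PD-1 tumour cells. Ratios of this pair are given without removal of leukocyte RNA and without matching on UMIs. The GTPases had a median ratio of 0.33 there, with 9 of 16 higher past the threshold and 12 above 0, beside 0.46 for combination to BTYNB. Gbp2 stood at 158 and 283 CPM (0.84), Igtp at 70.0 and 143 CPM (1.02), Iigp1 at 66.6 and 97.6 CPM (0.54) and Cd274 at 8.44 and 17.1 CPM (0.94) in control and anti-PD-1. Per cell, GTPase UMIs of 5000 averaged 4.65 and 6.79, and cells with 0 made up 7.48% and 10.1%, whereas that share was lower in the combination than in BTYNB. The medians of other IFNγ genes (0.32), MHC class II genes (0.52) and MHC class I genes (0.11) had the same sign in both pairs. Those of type I interferon genes did not. Of 37 tested in anti-PD-1 against control, 16 were lower and 3 higher past the threshold, with a median of -0.21, and Rtp4 stood at 47.4 and 29.2 CPM (-0.68), Ifi44 at 39.3 and 22.1 CPM (-0.80) and Isg15 at 15.2 and 13.2 CPM (-0.19). Folding genes had a median of 0.03, with Hspa5 at 1617 and 1558 CPM (-0.05), Creld2 at 101 and 93.7 CPM (-0.11) and Hyou1 at 46.6 and 61.5 CPM (0.39). The BTYNB levels of these 3 genes were above those of control. Glycolysis genes had a median of 0.39, with Pgk1 at 289 and 879 CPM, beside 280 and 261 CPM in BTYNB and combination. The paper reports a Cd24-positive tumour cell cluster, seen almost only after anti-PD-1 alone, that had shifted to glycolysis. In control and anti-PD-1 tumour cells Krtdap stood at 74.6 and 351 CPM, and the 5 tumour markers summed to 2021.5 and 2758.5 CPM. The part of such a cell state in the values of this pair was not tested. The difference between the pairs was not tested.

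**Figure D5:**
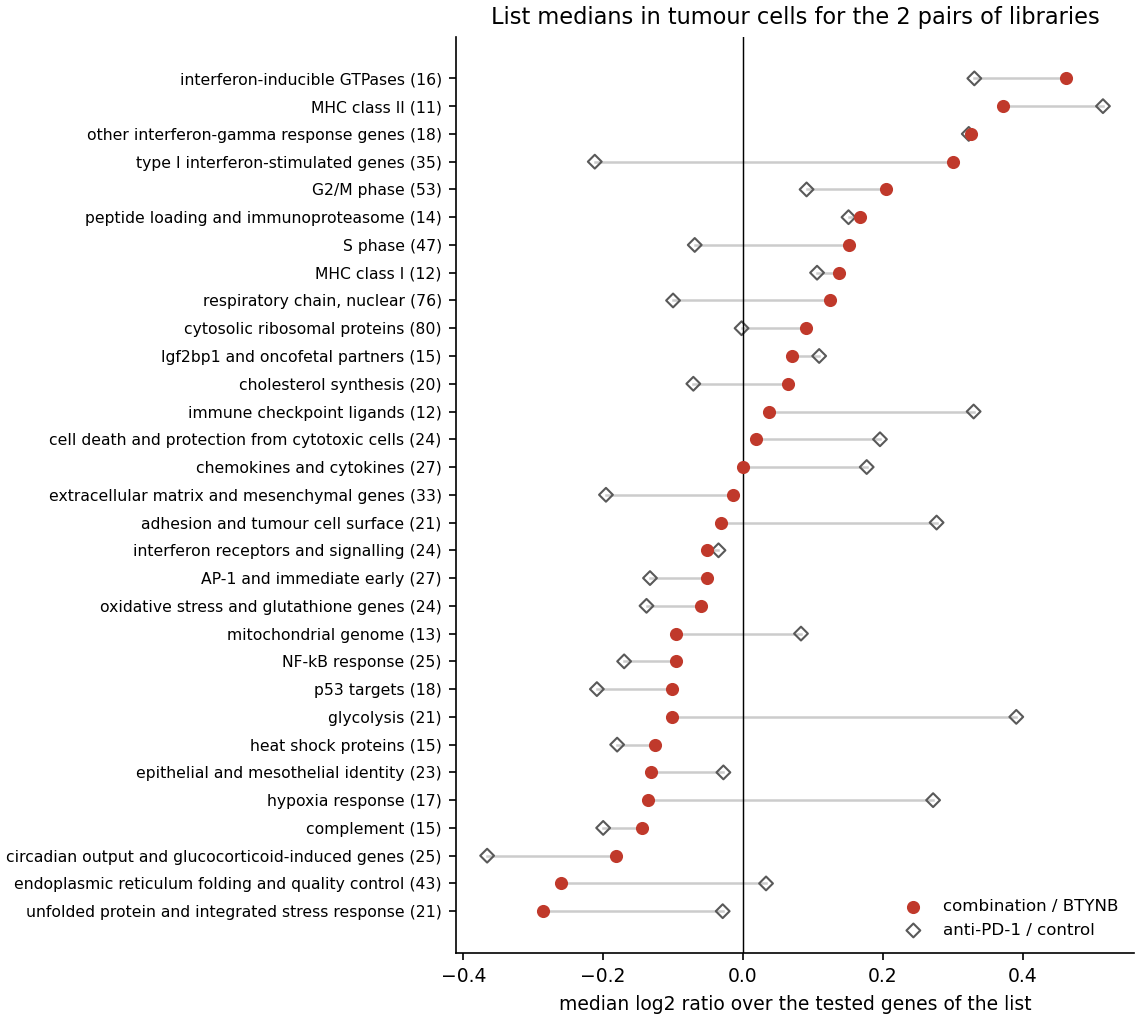
Median log2 ratio (x axis) over the tested genes of each list (y axis, number of tested genes in parentheses) for combination to BTYNB (red circles) and anti-PD-1 to control (open diamonds). The GTPases are at 0.46 and 0.33, the type I interferon genes at 0.30 and -0.21, glycolysis at -0.10 and 0.39 and the folding list at -0.26 and 0.03.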

How the data were processed

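Single cells of pooled ascites were captured on the BD Rhapsody system, and the authors deposited 1 matrix of raw UMI counts per treatment, made with the vendor's pipeline on GRCm39 per the submitters' processing notes. The authors marked doublets with scDblFinder, and no doublet caller was run here. No per-sample column was left unused. Cells were kept by the filters given above, 200 genes and 33% mitochondrial UMIs being the limits of the study. Tumour cell UMIs were summed per library and scaled to CPM. Genes with at least 100 UMIs in either library were compared with a pseudocount of 1 CPM. Intervals are exact 95% binomial or Poisson intervals. With 1 library per group there was no test. Members and gene lists were chosen with earlier results of these data known. The endoplasmic reticulum folding list, the clock list and the stress element were chosen after their values were seen. Named are list members and, outside the lists, genes at 20 CPM or more in the higher library: the 12 highest and 12 lowest ratios among genes higher in tumour than in Ptprc-positive cells, and the 5 highest and 5 lowest of the others. Others named were picked after values were seen. Thinning drew 5000 UMIs per cell. The 5 clusters came from k-means on 15 components. The leukocyte profile was the summed profile of a library's Ptprc-positive cells with fewer than 5 tumour marker UMIs, taken without the UMI floor. Levels that its subtraction made negative were set to 0, so ratios of genes with little left rest on the pseudocount. On counts simulated with counting error alone, nearly all set changes of 2-fold came out past 1.5-fold. Smaller changes and spread between cells or animals were not simulated. Tools were Python 3.11.15, numpy 2.4.6, scipy 1.17.1, pandas 2.3.3, scikit-learn 1.9.0 and matplotlib 3.10.9. Deposited depth was 114600397 UMIs in 19247 BTYNB cells and 78603888 in 7074 combination cells, and each alternative is named in the closing section. Some genes of the lists count in the totals but are not reported here.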

Additional observations from a re-analysis of the deposited data

Results flagged for a closer look

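Among lists of at least 5 tested genes, 4 had medians of opposite sign with and without BTYNB that were each at least 0.1 in size on the log2 scale. Type I interferon-stimulated genes had a median log2 ratio of 0.30 for combination to BTYNB and -0.21 for anti-PD-1 to control. Glycolysis genes were at -0.10 and 0.39, and genes of the hypoxia response at -0.14 and 0.27. Nuclear genes of the respiratory chain were at 0.13 and -0.10. With 1 pooled library per group these differences between the pairs were not tested. The paper reports a Cd24-positive tumour cell cluster almost only after anti-PD-1 alone, and its part in these medians was not tested either.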

How the results depend on the processing

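No paired analysis was possible because the labels give 1 library per group, and for the same reason no library could be left out. Each ratio was recomputed with 15 alternatives, 3 of them added after seeing the data (cells matched on UMIs, cells with fewer than 30 cell cycle UMIs of 5000, and Ptprc-positive cells kept). A planned limit of 3 cell cycle UMIs was not run, since it left 1 combination and 0 BTYNB cells. Of 206 values for the main lists, counts and the MHC-I to Cd274 ratio, 180 kept their direction and size and 26 moved. Of the values of other lists, 332 stayed within their error range, 26 moved and 2 turned sign, and of those of single genes, 3876 stayed within their counting interval, 1437 moved and 12 turned sign, counting turns of sign only for values past the threshold. The GTPase and folding medians were among those that kept both. With a pseudocount of 10 CPM the type I interferon median was 0.196, and 10 genes were higher and 9 lower by 1.5-fold in place of 64 and 29. In cells matched on UMIs the medians were 0.155 for MHC class II, -0.190 for NF-kB, 0.611 for S phase, 0.657 for G2/M and -0.341 for the clock list, with 280 genes higher and 88 lower and an MHC-I to Cd274 log2 ratio of -0.407. With a floor of 10000 UMIs, S phase was at 0.255 and G2/M at 0.304. G2/M was at 0.266 without the cells above the 95th percentile of UMIs and by the mean over cells, at 0.258 in thinned cells and at 0.369 with fewer cell cycle UMIs, where the clock list was at -0.015 and 97 genes were higher. The count of higher genes was 38 with at least 20 marker UMIs, 34 without cells holding leukocyte UMIs, 41 after subtraction of the leukocyte profile and 23 with at least 500 UMIs per gene, where 16 were lower. The MHC-I to Cd274 value was -0.386 without cells holding leukocyte UMIs and -0.468 by the mean over cells. Among values past the threshold, signs turned after subtraction for the macrophage markers (-0.265), Lyz2 (-0.505), Cd86 (-0.044), Il1b (0.158), Cfp (-0.341) and Cd14 (-0.459). Since negative levels were set to 0, such values can rest on the pseudocount, as that of Lyz2 did. Other signs turned elsewhere. Among values past the threshold, they turned in matched cells for the pan-leukocyte markers (-0.071), Cd86 (-0.222) and Cd14 (-0.235), with few cell cycle UMIs for Myl7 (-0.008), without cells holding leukocyte UMIs for Ccl5 (-0.138) and Cxcl5 (0.322), and with at least 20 marker UMIs for Cxcl13 (0.190) and Cxcl5 (0.020). The cause was not tested. Median-of-ratios scaling moved the median of all genes from -0.008 to 0.002. The depth limits genes of a few CPM, and the spread between animals is unknown.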
